A study of Homo sapiens with 4 samples.

Results

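The regions described here are the peaks of histone H4 trimethylated at lysine 20 (H4K20me3) that lay on exons of genes outside the zinc finger families. A peak was counted as an exon peak when it shared at least 1 base with an exon of a protein-coding gene and lay more than 2 kb from the start of every protein-coding gene. Genes whose symbols begin with ZNF, ZFP, ZSCAN, ZKSCAN, PCDH, KRTAP, USP17L or FAM90A were left out, as were chromosomes 19, X and Y. These rules gave 945 exon peaks of 38371 peaks in all, of which 875 came from senescent and 70 from proliferating cells. Among the called peaks they were chosen by position and gene symbol alone, with earlier results of these data known.

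H4K20me3 was mapped by chromatin immunoprecipitation and sequencing in IMR90 cells, a line of normal human lung fibroblasts that stops dividing after long culture. Dividing cells (PRO, population doubling 32) were set beside cells that had reached replicative senescence (RS, population doubling 86). Both groups were grown in low oxygen, and each held 2 samples, 1 for each of 2 antibodies against the mark. The authors merged the antibodies into 1 list of peaks per group, so no spread between samples remains in the lists, no test between PRO and RS could be made, and every value refers to this single cell line. A further list, made by the authors with DiffBind, holds regions whose enrichment differed between the groups, without the direction of the difference. None of the lists holds a height, a score or a read count, so the depth behind a peak is unknown.

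H4K20me3 is laid down by the SUV420H enzymes, mainly at chromatin that already carries H3K9me3, and is a mark of silent heterochromatin. It is best known at pericentric satellites, telomeres, retroviral elements and arrays of zinc finger genes. Exons outside those arrays are mostly single copy, but some long coding exons hold tandem repeats that encode repeated protein segments.

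The longest exon peak lay on an exon of this kind, in the mucin gene MUC12, and the stretch of 30 bases that recurs most often in that exon is shown for that reason. It is read in 10 whole codons on the coding strand of hg19, and capitals mark codons of serine and threonine, the amino acids that carry the sugars of a mucin.
MUC12: TCAggcgtcAGTgaagaaTCCACCACCTCC

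MUC12 encodes a membrane mucin of the gut. The stretch recurred 7 times in an internal exon of 14889 bp, and 7 copies lay wholly inside RS peaks. The copy printed is at chr7:100635387-100635416 on the plus strand.

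Exon peaks, which by rule lay more than 2 kb from gene starts, were a small and almost equal share of both lists. They made up 2.88% of the 30412 RS peaks and 2.98% of the 2350 PRO peaks on the same 21 chromosomes. RS thus held 12.5 times as many exon peaks as PRO, and 19.5 times as many among peaks of at least 1000 bp. The median RS exon peak was 1001 bp long and the median PRO exon peak 801 bp, and exons made up 38.4% and 39.2% of their bases, respectively. The distance rule weighed differently on the lists. Among peaks on exons, it left out more PRO peaks than it kept, but fewer RS peaks than it kept. The near-equal shares and the ratios of counts therefore hold only for peaks more than 2 kb from starts. In RS the rule cut through a thin part of the data. The nearest RS exon peak lay 2008 bp from a gene start, the farthest one left out lay 1986 bp away, and 40 RS peaks on exons lay between 1 and 2 kb against 25 between 2 and 3 kb.

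Each exon peak was assigned to the kind of exon that held most of its exon bases, with the reference transcript of each gene setting the kind. Internal exons, which are coding exons before the last coding one, held 422 RS exon peaks (48.2%, 95% Wilson interval 44.9 to 51.5). Last coding exons held 78 (8.91%, 7.20 to 11.0) and 3′ untranslated regions (3′ UTRs) held 114 (13.0%, 11.0 to 15.4). Genes with a single coding exon held 44 RS exon peaks, 5′ UTRs held 15, and exons found only in other transcripts held 202. In PRO the same kinds held 36 internal, 5 last coding, 11 3′ UTR, 1 single coding and 3 5′ UTR peaks, with 14 on exons of other transcripts. The share of internal exons in PRO (51.4%, 40.0 to 62.8) overlapped that in RS. These intervals cover counting error alone and treat peaks as independent, although neighbouring peaks are not.

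Peak numbers depend on how much sequence each kind of exon offers, so the share of bases inside peaks was compared next. Only bases more than 2 kb from gene starts were counted, and the introns of the same genes served as the background. RS peaks covered 0.684% of intron bases and 1.98% of the bases of last coding exons, a ratio of 2.90. Last coding exons lay above introns on 18 of 21 chromosomes. Internal exons were covered at 0.609%, a ratio to introns of 0.890, and lay above introns on 4 of 21 chromosomes. That ratio turned to 1.15 when only peaks without repeated sequence were kept, so no direction can be given for internal exons. 3′ UTRs were covered at 0.367%, a ratio of 0.536, and exceeded introns on 4 of 21 chromosomes. Single coding exons stood highest, at 4.59% and a ratio of 6.71, above introns on 15 of 21 chromosomes.

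**Figure D1:**
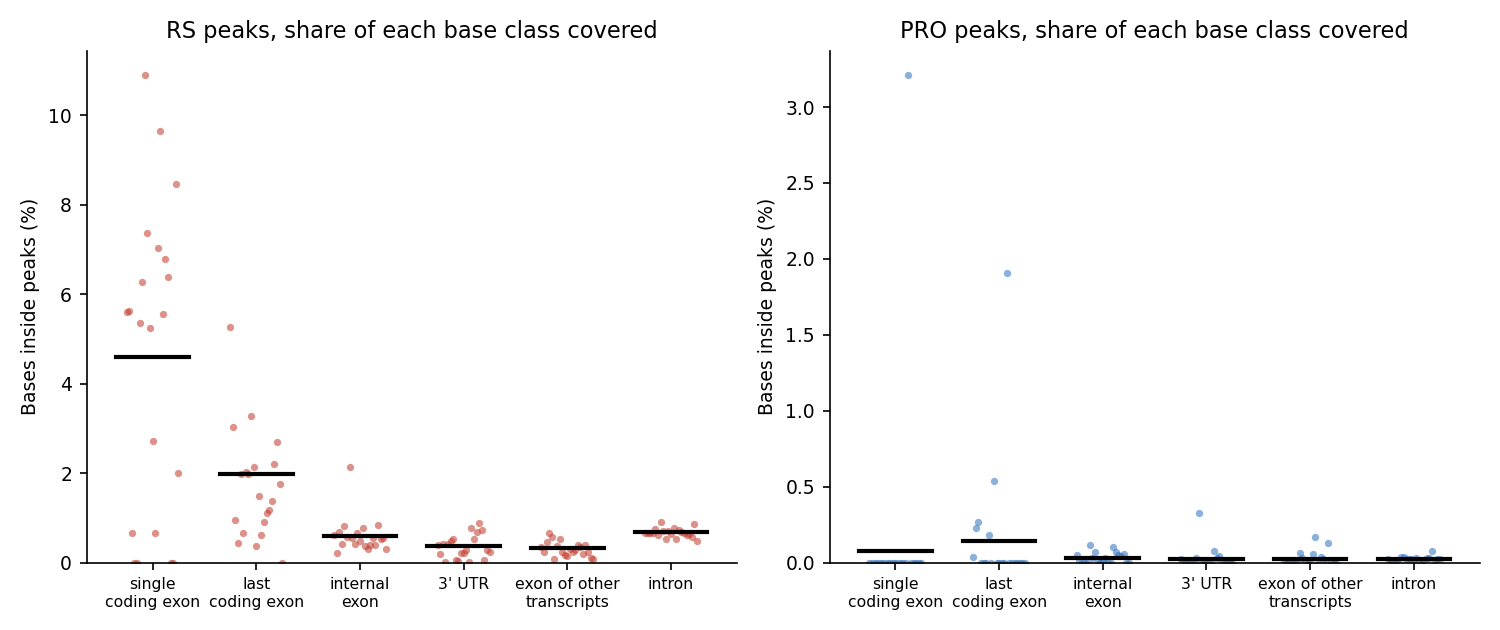
Share of bases inside peaks (%) for each kind of exon and for introns, more than 2 kb from gene starts, with 1 point per chromosome and a black line at the value over all 21 chromosomes, RS on the left and PRO on the right. In RS, single and last coding exons reach 4.59% and 1.98% over all chromosomes against 0.684% in introns, whereas PRO lies at 0 on 15 of 21 chromosomes for last coding exons and on 20 of 21 for single coding exons.

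A few genes carried much of these bases. FLG, HRNR, FLG2 and TCHH, all of the fused S100 family on chromosome 1, held 28.8% of the RS bases in last coding exons. MUC12, MUC19, MUC3A, MUC4 and MUC17 held 21918 of the 129130 RS bases in internal exons. Without the fused S100 genes and the mucins, the ratio to introns was 2.09 for last coding exons and 0.743 for internal exons. In PRO, last coding exons were covered at 0.144% against 0.0238% in introns, but the 5193 bases behind this value came from 7 exons, and only 6 of 21 chromosomes exceeded their introns. PRO internal exons (0.0336%) had a ratio to introns of 1.41 but exceeded introns on only 8 of 21 chromosomes. PRO 3′ UTRs (0.0248%) had a ratio to introns of 1.04 but exceeded introns on only 5 of 21 chromosomes. Of the 7093 bases behind this value, 3707 lay in a single peak on the gene REXO1L1.

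DiffBind regions more than 2 kb from gene starts also covered last coding exons more and 3′ UTRs less than introns, but placed internal exons above introns. They covered 3.06% of last coding exons, 1.12% of internal exons, 0.566% of 3′ UTRs and 0.731% of introns. Last coding exons exceeded introns on 20 of 21 chromosomes and internal exons on 17 of 21. These regions come from the same libraries as the peaks and are not an independent measurement.

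Longer coding exons were covered more. RS peaks covered 0.233% of the bases of coding exons under 100 bp, 0.554% of those from 200 bp to under 300 bp and 2.06% of those from 500 bp to under 1000 bp. The share was 2.36% from 1000 bp to under 3000 bp and 5.41% in exons of at least 3000 bp. An RS peak touched 19 of 197 exons of the last size (9.64%, 95% Wilson interval 6.26 to 14.6), compared with 126 of 50164 exons under 100 bp (0.251%, 0.211 to 0.299). 3′ UTRs showed no such rise, with covered shares between 0.335% and 0.581% over the same sizes. PRO peaks touched 4 of 1679 coding exons of at least 1000 bp.

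The highest value depended on repeated exons. Among exons in which no window of 75 bases occurs elsewhere in the genome, exons of at least 3000 bp were covered at 0.824%, with 4 of 156 touched, whereas those from 1000 bp to under 3000 bp stayed at 2.23%. The rise from short exons to 1000 bp was therefore measured in unrepeated sequence as well, and the value at 3000 bp was not. Of 59 coding exons of at least 1000 bp in which over 20% of 12-base words recur within the exon, RS peaks touched 13 (95% Wilson interval 13.4% to 34.1%). Of 1574 in which at most 5% recur, they touched 58 (3.68%, 2.86 to 4.73). The first set was longer, with a median of 2478 bp against 1454 bp, and richer in GC, at 55.5% against 51.3%. Neither was matched. DiffBind regions touched 11.9% of the first set (5.87 to 22.5) and 6.99% of the second (5.83 to 8.36). Reads from repeated windows can be placed at a wrong copy, and the part of this in the result was not tested.

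From 300 bp upwards, last and single coding exons had a higher covered share than internal exons of equal length, whereas from 200 bp to under 300 bp last coding exons had 0.398% and internal exons 0.578%. Between 500 bp and under 1000 bp the RS share was 5.43% for single, 2.46% for last and 1.16% for internal exons. In the next size the shares were 5.58%, 2.23% and 1.48%. RS peaks touched 26 of 994 last coding exons (2.62%, 1.79 to 3.81) and 27 of 1748 internal exons (1.54%, 1.06 to 2.24) of the smaller size, and these intervals overlap. Single coding exons were touched in only 1 of 38 cases from 300 bp to under 500 bp and in 3 of 18 from 3000 bp. At the latter size they were covered at 3.91% and internal exons at 3.72%. In DiffBind regions, last coding exons from 300 bp to under 500 bp had 1.38% against 1.43% for internal exons. Single ones of at least 3000 bp had 2.06% against 5.28% there, and the other classes from 300 bp kept the order.

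**Figure D2:**
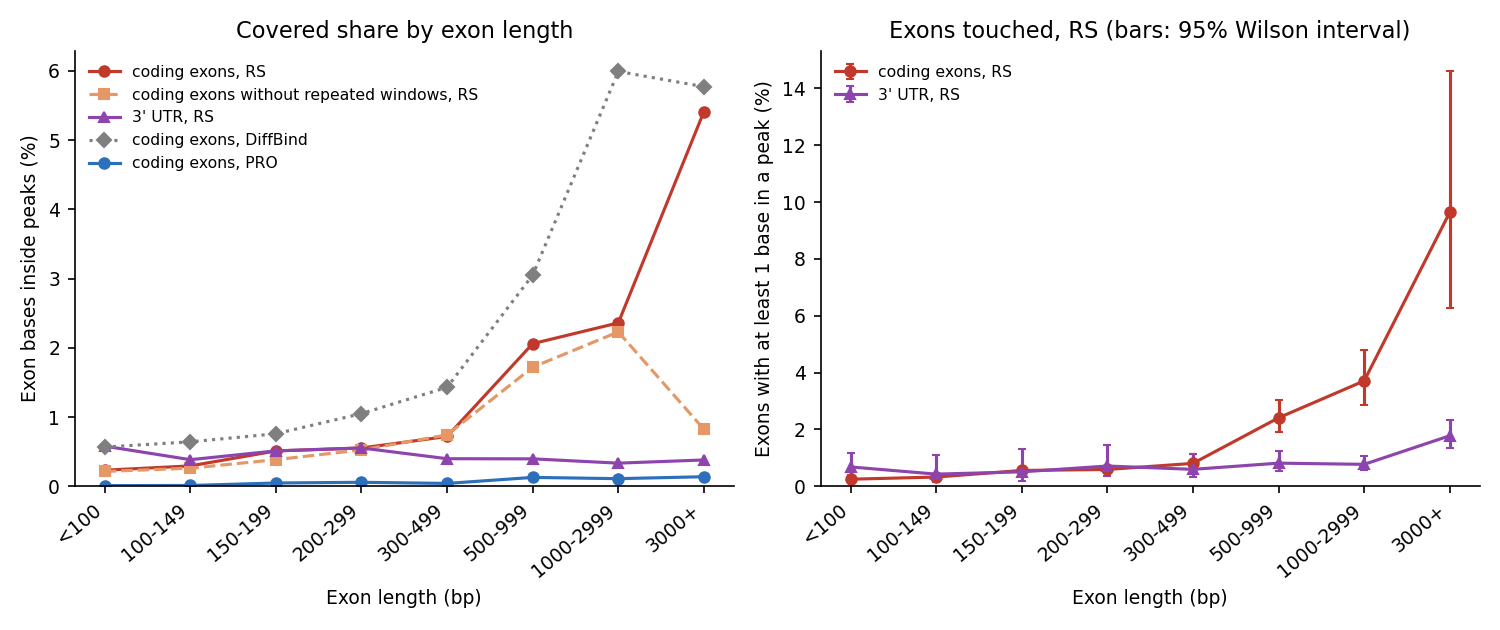
Left, share of exon bases inside peaks (%) by exon length in bp for coding exons and 3′ UTRs, by list. Right, share of exons with at least 1 base in an RS peak, with 95% Wilson intervals. Coding exons in RS rise from 0.233% to 5.41% of bases, but the last point falls to 0.824% without repeated windows, and 3′ UTRs stay under 0.6%.

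Base composition moved with the same result. RS exon peaks had a median GC content of 52.1%, compared with 49.7% for all RS peaks. Coding exons of at least 1000 bp were touched by an RS peak in 2 of 500 cases where GC was under 45%, in 24 of 492 between 45% and 55%, and in 48 of 687 from 55% upwards. Within the last class, 27 of 232 were touched from 55% to under 60% (11.6%) and 21 of 455 from 60% upwards (4.62%). Introns, cut into windows of 1000 bp, gave a comparison by GC class. GC was taken over each exon or window, so short exons were classed over less sequence than introns. RS peaks covered 0.184% of windows under 40% GC and 2.37% of those from 50% to under 55%. The share was lower in both higher classes, at 1.74% from 55% to under 60%.

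Long coding exons were set beside introns of the same GC class. Between 40% and 45% GC they were covered at 0.212%, below the 0.735% of introns. Under 40% they were covered at 0.283% against 0.184%, with 1 exon touched. Between 45% and 50% they were covered at 4.05% against 1.50%, and between 55% and 60% at 10.5% against 1.74%. The gap was narrower between 50% and 55%, at 3.1% against 2.37%. It was also narrower from 60% upwards, where long coding exons, at 2.69%, still lay above introns. Dropping exons with more than 5% of repeated 12-base words left 2.15% between 45% and 50% and 5.21% between 55% and 60%. Introns, which were not filtered for repeats, stayed at 1.50% and 1.74% in these classes. Short coding exons, of 100 bp to under 200 bp, lay below introns in all 6 GC classes, for instance at 0.632% between 50% and 55%. 3′ UTR windows also lay below introns in all 6 classes, at 0.892% in that same class. The DiffBind list gave 13.3% for long coding exons between 55% and 60% GC, 1.68% for the short ones and 2.66% for introns.

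**Figure D3:**
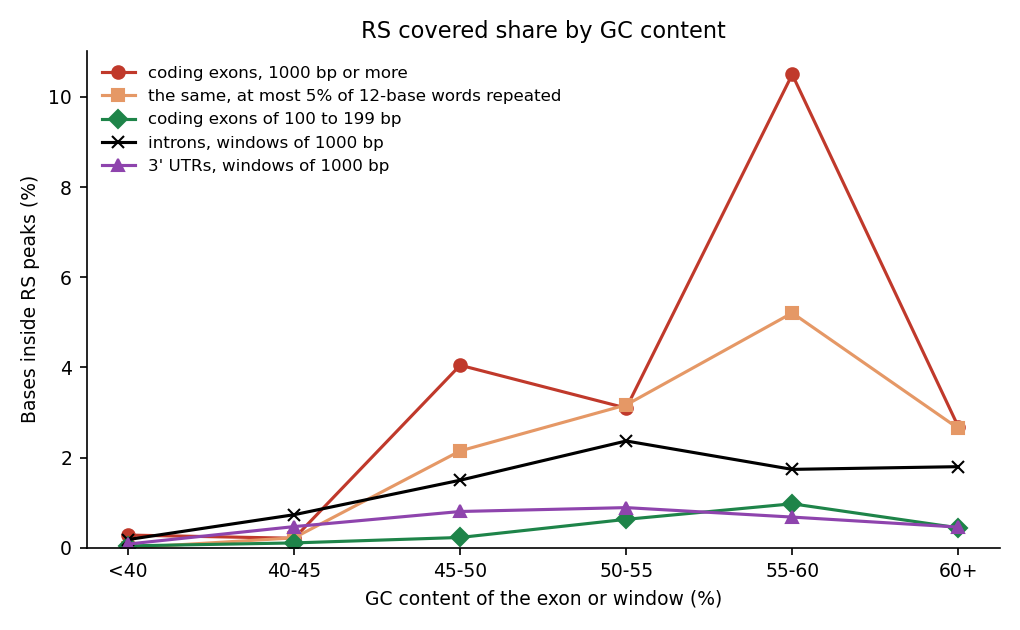
Share of bases inside RS peaks (%) by GC content (%) for long coding exons, short coding exons, and introns and 3′ UTRs cut into windows of 1000 bp. From 45% GC upwards long coding exons lie above introns of the same GC class, while short coding exons and 3′ UTRs lie below them throughout. GC is that of each exon or window, and short exons span less sequence than intron windows.

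Peaks on exons often covered an exon whole. RS peaks touched 581 internal exons and covered 426 of them from end to end (73.3%). These exons had a median length of 154 bp, compared with 123 bp for all internal exons. Of 105 last coding exons touched, 49 (46.7%) were covered whole, and their median length was 536 bp against 145 bp for all. Of 150 3′ UTRs touched, 34 (22.7%) were covered whole. The median RS exon peak, at 1001 bp, was longer than most of the internal exons touched. What the lengths of peaks and exons alone would give was not tested.

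Next, the exon peaks were set against the other lists. Of 875 RS exon peaks, 484 (55.3%, 52.0 to 58.6) overlapped a DiffBind region, compared with 43.7% of all RS peaks on the same chromosomes. The share was 49.0% (47.9 to 50.2) for RS peaks in introns of the same genes and 41.6% (40.9 to 42.3) for RS peaks outside them. Within classes of peak length, the share on exons and in introns was 50.4% and 43.6% under 700 bp, 46.2% and 47.4% from 700 bp to under 1200 bp, and 64.6% and 59.3% from 1200 bp upwards. By kind of exon, the share was 58.8% for internal exons, 58.8% for 3′ UTRs, 51.3% for last coding exons and 43.2% for single coding exons, with overlapping intervals.

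Of the 70 PRO exon peaks, 26 overlapped an RS peak (37.1%, 26.8 to 48.9), against 51.6% of all PRO peaks. A DiffBind region overlapped 9 of them (12.9%, 6.91 to 22.7), against 9.19% of all PRO peaks. PRO peaks confined to introns gave 38.3% (33.2 to 43.6) and those outside these genes 57.5% (55.1 to 59.8), so exon and intron peaks of these genes had like shares. Of the PRO exon peaks without an RS peak, 6 overlapped a DiffBind region and 38 overlapped neither list. In the other direction, 31 RS exon peaks (3.54%) overlapped a PRO peak, against 3.49% of all RS peaks. Exon peaks of both groups held less repeated sequence than their lists. A window of 75 bases that occurs elsewhere in the genome lay in 45.7% of PRO exon peaks against 64.2% of all PRO peaks, and in 35.2% of RS exon peaks against 47.2% of all RS peaks.

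Of 17250 coding genes outside the left-out families, 698 (4.05%) had an RS exon peak and 58 (0.336%) a PRO exon peak. There were 20 genes with both, which is 2.87% of the RS genes and 34.5% of the PRO genes. In RS, 129 genes had at least 2 exon peaks and 43 had at least 3. The genes below are those with the most bases of a given kind of exon inside peaks, taken separately for peaks with and without repeated windows. Their coverage is what chose them and is given as a description.

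Among internal exons in unrepeated RS peaks, SYNPO2 came first. It encodes an actin-binding protein of muscle, and 85.3% of its 3252 internal exon bases lay in RS peaks, 67.1% in DiffBind regions and 0% in PRO peaks. PIK3CG, the catalytic gamma subunit of phosphoinositide 3-kinase in leukocytes, had 52.6% in RS and 65.8% in DiffBind regions. AOC1, the gene of diamine oxidase, which breaks down histamine, had 66.8% in RS and 78.9% in DiffBind regions. In each of PIK3CG and AOC1 a single long exon, of 1995 and 1570 bp, carried all the covered bases. FAT2, a giant cadherin, had 1756 bases of a 4053 bp exon inside an RS peak. None of these 4 genes had an exon base in a PRO peak, and all 4 had DiffBind bases in internal exons, although the RS peak of FAT2 lay outside DiffBind regions.

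MUC12 had the longest exon peak. A single RS peak of 12801 bp lay wholly within its exon of 14889 bp, 96.7% of the exon lay in DiffBind regions, and no base of it lay in a PRO peak. MUC19, a gel-forming mucin, had 3 RS peaks that covered 44.1% of an exon of 12253 bp that is annotated as coding but has no open reading frame in hg19, with no base in a DiffBind region. LPA encodes apolipoprotein(a), which is built from many near-identical kringle domains, each encoded by a pair of short exons. RS peaks touched 14 of its 38 internal exons and covered 40.2% of their bases, PRO peaks covered 22.7%, and DiffBind regions covered none. Its 8 RS exon peaks lay largely in sequence that occurs elsewhere, with repeated windows at 49.8% to 100% of positions, so the kringle copy a read came from is uncertain. CDC27, a subunit of the anaphase-promoting complex with many pseudogene copies, was covered at 29.2% in PRO and 20.5% in RS. TMEM64, a membrane protein gene on chromosome 8, had 56.0% in PRO and none in RS.

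**Figure D4:**
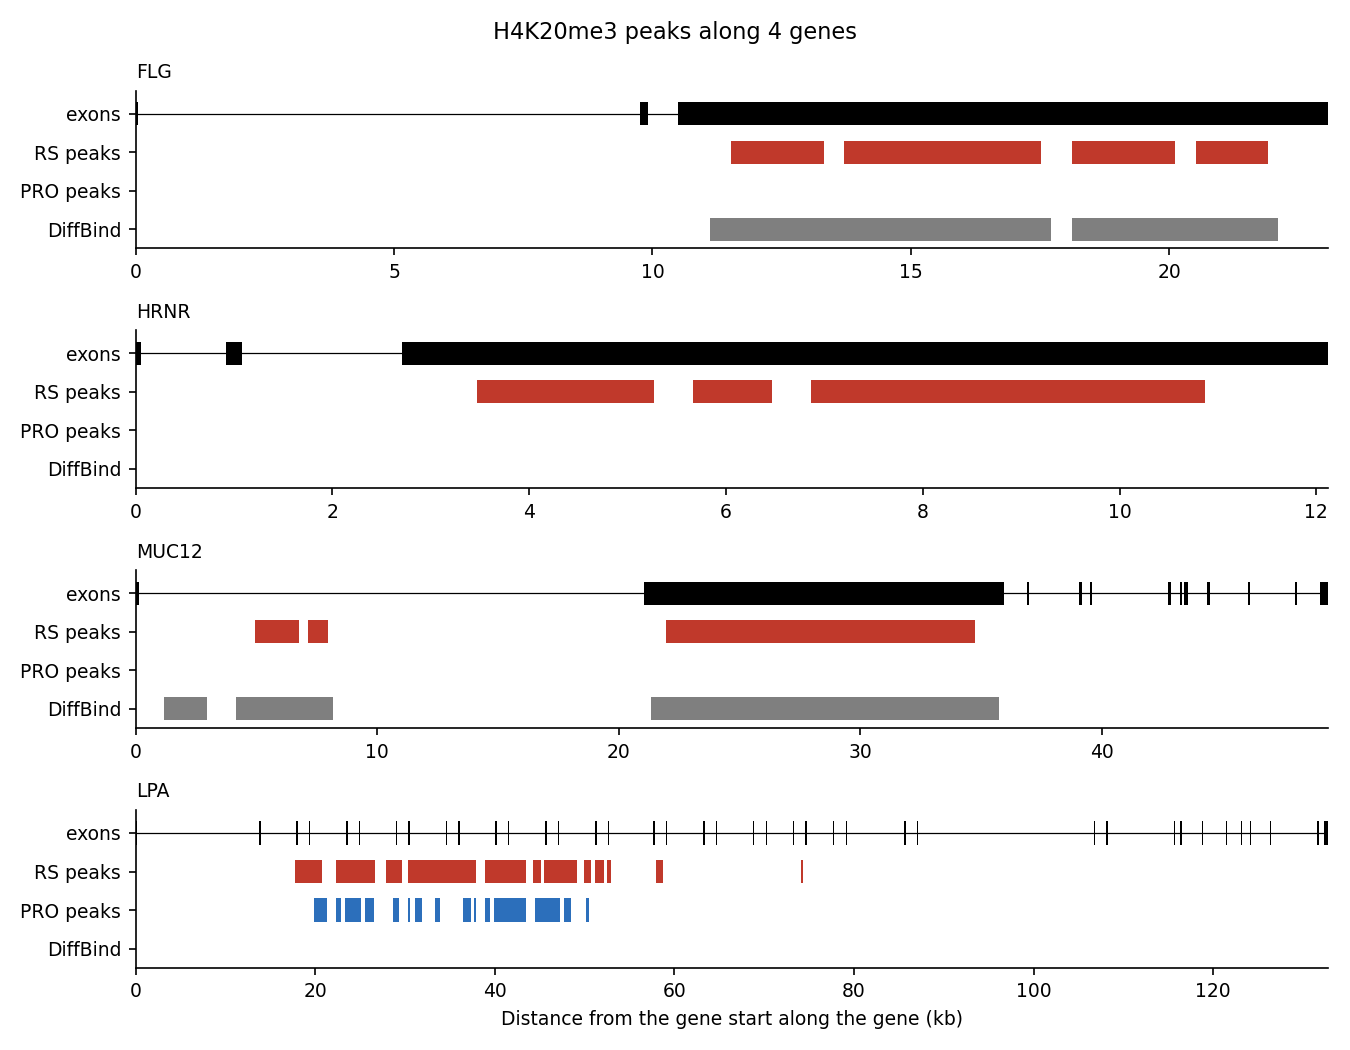
Exons and peaks of RS, PRO and DiffBind along FLG, HRNR, MUC12 and LPA, as distance in kb from the start of each gene along its own strand. RS peaks fill most of the long exon of FLG, HRNR and MUC12 and touch 14 of the 38 internal exons of LPA, PRO peaks occur in LPA alone, and DiffBind regions cover FLG and MUC12 but not HRNR or LPA.

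Last coding exons were led by the fused S100 genes of the epidermis. Filaggrin's last coding exon, FLG at chr1:152275176-152287223, was covered at 74.7% in RS by 4 peaks and at 88.0% in DiffBind regions. HRNR was covered at 78.5% in RS and FLG2, the filaggrin-2 gene, at 59.7%, yet neither had a base in a DiffBind region. None of these genes had an exon base in a PRO peak. FLG2 also came first among unrepeated peaks, with 2602 bases.

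Next among unrepeated peaks, by covered bases, were TSHZ2 with 2401, C2orf16 with 2002, and HRNR and BCL11A with 1801 each. TSHZ2, a teashirt zinc finger and homeobox gene, had 78.3% of its last coding exon in RS and 100% in DiffBind regions. BCL11A, which silences fetal globin genes in erythroid cells, had 89.1% in RS and 92.2% in DiffBind regions. Neither had a base in PRO. Its relative BCL11B, needed for T cell identity, showed the opposite. Its last coding exon had 94.5% of 2045 bases in a PRO peak and none in an RS peak, even when peaks near gene starts were included. C2orf16 had 12.7% of a 15793 bp exon in RS. SPATA31A6, 1 of several near-identical testis genes on chromosome 9, had 48.4% in RS and 26.9% in PRO, in sequence with repeated windows at over 80% of positions. POMC, the precursor of corticotropin and melanocortins, was covered in both groups without any repeated window. Its last coding exon of 672 bp lay at 100% in RS and 92.4% in PRO, and DiffBind regions held none of it.

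The genes with the most covered 3′ UTR bases were of mixed function. BTD, which encodes the biotin-recycling enzyme biotinidase, had 34.1% of a 3′ UTR of 8226 bp in RS and none in DiffBind regions. SDC3, the cell surface proteoglycan syndecan-3, had 65.6% in RS and 97.7% in DiffBind regions. DYM, a Golgi protein gene, had 36.6% and 67.8%, and SHISA6, an accessory subunit gene of AMPA receptors, 30.9% and 0%. A gene without a symbol, ENSG00000261611 on chromosome 16, had 64.4% and 67.5%. Among repeated peaks, FOXO3B, a copy of the FOXO3 transcription factor gene, had 87.2% in RS and 4.29% in PRO, POTEM 78.7% and 0%, and KIAA1614 51.1% and 0%.

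For PRO, the 3′ UTR genes were REXO1L1, NBPF1 and DPF3. REXO1L1, an array gene on chromosome 8, had 74.1% of its 3′ UTR in a PRO exon peak and none in an RS exon peak. That difference came from the distance rule. With every peak counted, those near gene starts included, its 3′ UTR was covered at 100% in RS and 92.0% in PRO. NBPF1, of a primate-expanded family, had 51.5% in PRO and none in RS with every peak counted. DPF3, a subunit gene of the BAF remodelling complex, had 6.43% in PRO and 13.7% in RS. Of the 38 genes with a PRO but no RS exon peak, REXO1L1 was the only 1 to carry an RS peak on an exon once peaks near starts were counted.

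Gene groups were compared by how many of their members had an RS exon peak, against 4.05% of all 17250 genes. Of 9 fused S100 and cornified envelope genes 4 had one (44.4%, 95% Wilson interval 18.9 to 73.3), and exon bases were covered at 11.5% in TCHH and 46.1% to 70.4% in FLG2, HRNR and FLG. Of 16 mucins, which line epithelia, 6 had one (37.5%, 18.5 to 61.4), from 0.503% of exon bases in MUC2 to 55.7% in MUC3A and 74.5% in MUC12. The 8 genes among 33 of the TBC1D3 and NPIP families (24.2%, 12.8 to 41.0) were all TBC1D3 genes, near-identical copies on chromosome 17, and the 8 among 36 golgin A genes (22.2%, 11.7 to 38.1) were all copies on chromosome 15. POTE and ANKRD genes, which encode ankyrin repeats, gave 10 of 69 (14.5%, 8.07 to 24.7). Copies of these families share sequence, and the gene a peak belongs to is uncertain.

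Potassium channels were a group of mostly single-copy genes with 10 of 87 members (11.5%, 6.36 to 19.9). KCNJ12, an inward rectifier with near-identical copies, had 39.0% of its exon bases in RS and 67.8% in DiffBind regions. KCNG2 and KCNS3, modifier subunits of voltage-gated channels, had 48.7% and 38.4% in RS, with 48.7% and 44.3% in DiffBind regions. TRIM genes, many of them ubiquitin ligases, gave 7 of 78 (8.97%, 4.42 to 17.4).

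Several large groups lay near the share of all genes. Olfactory receptors, which smell neurons use one at a time, gave 20 of 394 (5.08%, 3.31 to 7.71), solute carriers 15 of 343 (4.37%), keratins 2 of 55 (3.64%), collagens 2 of 41 (4.88%) and kinesins 2 of 38 (5.26%). By bases, however, RS peaks covered 1.76% of the exon bases of olfactory receptors, compared with 0.454% over all genes. Cadherins gave 3 of 23 and axonemal dyneins 2 of 13, with wide intervals. None of 74 histone genes, 76 ribosomal protein genes, 19 HLA genes or 8 RGPD and RANBP2 genes had an RS exon peak. Their upper Wilson bounds, of 4.93%, 4.81%, 16.8% and 32.4%, all lie above the 4.05% of all genes. Histone and olfactory receptor genes are short, and peaks within 2 kb of a start were not counted. Of 25 senescence and cell cycle genes and 12 fibroblast genes, 0 had an exon peak in either group, with upper Wilson bounds of 13.3% and 24.2%. Of 16 heterochromatin enzymes and readers, EHMT1, an H3K9 methyltransferase gene, had one in RS and one in PRO, on 0.559% and 0.856% of its exon bases.

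The NBPF genes, a primate-expanded family, had exon peaks in PRO. Of 14 NBPF genes, 3 had a PRO exon peak (21.4%, against 0.336% of all genes) and 0 an RS exon peak, with an upper Wilson bound of 21.5%, and the difference was not tested. These were NBPF1, NBPF14 and NBPF20, with 11.5%, 4.83% and 0.671% of their exon bases in PRO peaks. Each of their exon peaks held repeated windows, and the gene a peak belongs to is uncertain.

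**Figure D5:**
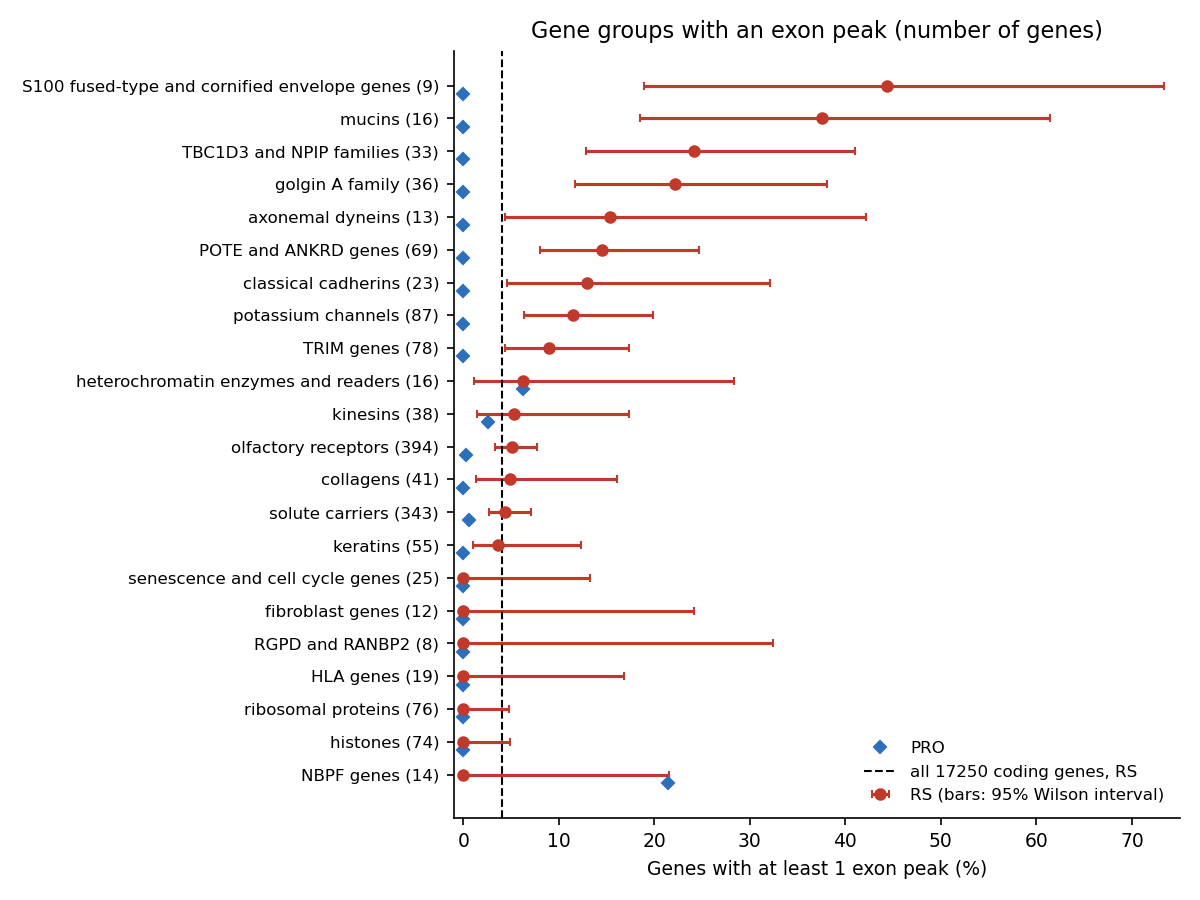
Share of genes (%) with at least 1 exon peak in each gene group, with the number of genes in parentheses, RS as circles with 95% Wilson intervals and PRO as diamonds. The dashed line marks 4.05%, the RS share of all 17250 genes. The fused S100 genes and mucins lie highest at 44.4% and 37.5%, and the NBPF genes reach 21.4% in PRO.

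The name of the set was checked against the protein code. A C2H2 zinc finger is a fold in which a pair of cysteines and a pair of histidines hold a zinc ion. Leaving out genes by symbol does not leave out every gene with such fingers. Of the 17250 genes, 176 encode at least 2 C2H2 motifs. Of these 176, 12 (6.82%, 3.94 to 11.5) had an RS exon peak, against 686 of the other 17074 (4.02%, 3.73 to 4.32), and 2 had a PRO exon peak. RS exon peaks covered 7.17% of their last coding exon bases, compared with 1.68% for the other genes, over whole exons. Of the 8050 bases behind the first value, TSHZ2 held 2401, BCL11A 1801 and RBAK 1432. Exon length was not matched between these sets of genes.

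These 12 genes were BCL11A, BNC2, GFI1B, IKZF3, MECOM, PRDM9, RBAK, TSHZ2, ZFAT, ZIC4 and a pair without symbols, ENSG00000289685 and ENSG00000290183. Some exon peaks also overlapped a left-out gene. Without such peaks 857 RS and 66 PRO exon peaks remained, and 10 of these 12 genes kept an RS exon peak. RBAK, a repressor that binds the retinoblastoma protein and carries 14 motifs, had 75.1% of its last coding exon in RS. PRDM9, a methyltransferase that places meiotic recombination sites and carries 13 motifs, had 57.2% and no base in PRO or DiffBind regions. IKZF3, the lymphoid factor Aiolos, had 79.4%. ENSG00000290183, with 9 motifs, had 95.1% of its exon bases in RS and 71.9% in PRO. In MECOM and BNC2 the covered bases lay in internal exons and the last coding exon was not covered, and in ZFAT 1176 of 1335 covered bases lay in internal exons.

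Genes with a single coding exon formed the most covered class, and examples were chosen after their values were seen. HSPA2, a testis-enriched heat shock protein, had 95.5% of an exon of 1920 bp in RS and 95.5% in DiffBind regions. SLITRK5, a neuronal membrane protein, had 69.6% of 2877 bp in RS and none in DiffBind regions, and CNR1, the cannabinoid receptor of the brain, 84.6% of 1419 bp in both. RTL1, a gene derived from a retrotransposon, had 34.4% of 4077 bp in RS and none in DiffBind regions. ERV3-1, the envelope gene of an endogenous retrovirus, was covered at 100% in RS and in DiffBind regions. None of these 5 had a base in PRO.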

How the data were processed

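ChIP-seq of H4K20me3 was analysed for 4 samples in 2 groups of 2. Per the labels and the study's methods, the authors mapped reads with Bowtie2 (2.1.0) on hg19, called domains with SICER (1.1) in windows of 200 bp against total histone H4, and intersected both antibodies. The deposited lists give start and end positions in bases and no count, score or direction, so the depth behind each peak is unknown. The study reports reads per library, and these differed between libraries in uniquely aligned reads and in the share of duplicates. Their effect on the peak counts of PRO and RS was not tested. DiffBind (1.8.3) treated the antibodies as replicates. The study describes more regions than the list analysed here, which may be another version.

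Exons came from GENCODE release 44 mapped to GRCh37, and kinds of exon from the Ensembl canonical transcript (17011 genes) or the longest coding one. The 3 lists were compared in Python 3.11.15 with numpy 2.4.6, pandas 2.3.3 and Biopython 1.88. Repeated windows were exact matches of 75 bases on either strand. A C2H2 gene had at least 2 matches of the motif in its translated coding sequence. Interval arithmetic was tested on simulated data. Intervals are 95% Wilson intervals and cover counting error only.

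Members, gene groups and comparisons were chosen with earlier results of these data known, and the classes of exon length, GC and repeats after values were seen. Genes were named by most covered exon bases per kind of exon, as 5 in RS peaks without repeated windows, 3 in RS peaks with them and 3 in PRO, besides members of the listed groups. Some items that this rule selects are not reported here.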

Additional observations from a re-analysis of the deposited data

How the results depend on the processing

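Of 94 values from alternative settings, 17 moved outside the 95% interval of the value reported. Some of the others are unchanged by construction, since the covered shares do not depend on the transcript set, the minimum of shared bases or the order of kinds. The share of RS peaks on exons was 2.63% at a distance over 5 kb, 2.21% with exons of 1 reference transcript per gene, 2.42% with at least 100 shared exon bases, 3.57% for peaks of at least 1000 bp and 3.53% without repeated windows. With reference transcripts, 11.6% of RS exon peaks lay in last coding exons, 62.7% in internal exons and 16.9% in 3′ UTRs, since exons of other transcripts drop out. In a fixed order of kinds, last coding exons took 13.4% and 3′ UTRs 10.9%. For peaks of at least 1000 bp, the RS to PRO ratio of counts was 19.5, the ratio of 3′ UTRs to introns 0.670 and the share over DiffBind regions 61.0%. Without repeated windows internal exons took 52.2%, and their ratio to introns rose from 0.890 to 1.15, which turned its direction. Without fused S100 genes and mucins, an alternative chosen after seeing the data, the ratios were 2.09 for last coding and 0.743 for internal exons. Last coding exons lay above introns and 3′ UTRs below them with other start distances, longer peaks, no repeated windows, no overlap with a left-out gene, and without fused S100 genes and mucins.

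No paired analysis was possible because the antibodies of a group had been merged into 1 list, and leaving out a replicate was not run for that reason. The lists hold no depth, so a missing peak is not an absent mark. PRO values rest on 70 peaks. Peaks of the same gene, near-identical copies and clustered exons are not independent.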

Other observations

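Genes with many exon peaks, chosen after their values were seen, were mostly large. HYDIN, a ciliary protein gene on chromosome 16, had 10 RS exon peaks and 1 PRO exon peak, and RS covered 6.85% of its exon bases. All of these HYDIN peaks held repeated windows, at 1657 of 2127 positions in 1 RS peak, so the gene they belong to is uncertain. MAPK9, the gene of the stress kinase JNK2, had 7 RS exon peaks and 31.1% of its exon bases in RS, with 29.2% in DiffBind regions. CSMD2, a large complement-domain protein gene, had 5 RS exon peaks.

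RS exon peaks were spread over the genome, from 11 on chromosome 22 to 108 on chromosome 1. Per Mb of exon bases they ranged from 4.88 on chromosome 4 to 15.4 on chromosome 16. Of RS exon peaks, 6.06% (95% Wilson interval 4.66 to 7.84) lay within 100 kb of a gene of the left-out families, compared with 6.38% of all RS peaks more than 2 kb from starts and 2.74% of the exon bases. Within 1000 kb the share was 24.9% (22.2 to 27.9) for RS exon peaks and 17.5% for all RS peaks, with 16058573 of 84574340 exon bases that near. For PRO exon peaks it was 10.0% (4.93 to 19.2) against 7.25% within 100 kb, and 17.1% (10.1 to 27.6) against 17.6% within 1000 kb. Among the 20 genes with exon peaks in both lists, OR4Q3, an olfactory receptor gene, had the same share of 27.8% of its exon bases in RS and PRO.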
